A study of Mus musculus with 4 samples.

Results

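The Myc and Max network was examined in E14 mouse embryonic stem (mES) cells after depletion of Zfp322a, a zinc finger protein. The network is taken here as 10 genes, Myc, Mycn, Mycl (written Mycl1 in older annotation), Max, Mxd1, Mxd3, Mxd4, Mxi1, Mnt and Mga, out of 18193 genes that the arrays name. All 27 probe sets whose single gene symbol is one of these names were used, out of 45037 probe sets. The genes are listed by name, but the network was chosen by its log2 differences between the same 2 groups that are compared here, so that the members' values are given as a description, with no p-value. RNA was hybridised to 4 Affymetrix arrays, 1 per sample. The 2 control RNAi samples were cells transfected with a control plasmid. The 2 Zfp322a RNAi samples were cells transfected with an shRNA plasmid against Zfp322a, where the labels do not say which shRNA. The study's figure legends name the empty pSuper.puro plasmid for RNAi controls, whereas its array methods speak of a control shRNA plasmid. All 4 samples were grown with serum and leukaemia inhibitory factor (LIF) and underwent 3 days of puromycin selection per the labels (the study's methods give a longer one for array samples). Transfection was transient, and nothing in the labels tells whether replicates came from separate cultures, so that p-values measure only the spread between these samples, which may be technical.

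Myc, Mycn and Mycl are transcription factors of the basic helix-loop-helix leucine zipper (bHLHZip) class that bind DNA only as partners of Max, at a palindrome called the E-box, and activate genes for growth, metabolism and ribosome production. The same partner Max also serves the Mxd proteins, Mxi1 and Mnt, which occupy E-boxes too but bring Sin3 and histone deacetylases and thereby repress. Mga is a large bHLHZip protein that, with Max, sits in a variant Polycomb complex (PRC1.6), which is known in mES cells for repressing germline genes. In mES cells Myc is a known target of LIF and STAT3 signalling, and either Myc or Mycn can sustain self-renewal.

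Promoter windows of RefSeq (GRCm38.p6, 250 bases before to 50 bases after the start) were at hand for 9 members, 11 windows in all, but not for Myc. The E-box CACGTG, which reads the same on both strands, was present in 3 of the 11 (27.3%), those of Max, Mxd4 and Mnt, against 7.15% of 32851 promoter windows. These 3 are shown, 5′ to 3′ on the strand of the gene with the E-box in capitals, because the E-box is the sequence that the network itself reads. They lie at chr12:76962234-76962263 (minus strand), chr5:34187912-34187941 (minus strand) and chr11:74830789-74830818 (plus strand).
Max: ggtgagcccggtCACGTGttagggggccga
Mxd4: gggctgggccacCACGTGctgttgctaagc
Mnt: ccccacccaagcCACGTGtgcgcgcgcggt
The form TTTCCCGC of the site of E2F factors stood in 0 of the 11 windows, against 1.07% of all windows. The window of Mycn held no CACGTG but 2 copies of TTTGGCGC, another form of that site, which 0.514% of all promoter windows held on either strand. These copies begin at -183 and -168 relative to the start and do not overlap each other. The 30-base stretches around them, at chr12:12942001-12942030 and chr12:12941986-12942015 (minus strand), do overlap and are shown with the site in capitals.
Mycn, first: agcaaatggctTTTGGCGCgaaaggctttg
Mycn, second: gcgcgaaaggcTTTGGCGCctcccctgatt
A match of letters is a description of the window and not evidence that a factor is bound there.

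The arrays were alike within groups. Their medians lay between 6.07 and 6.11 on the log2 scale, and the Pearson correlation over 45037 probe sets was 0.998 for both pairs of replicates and 0.989 to 0.990 across the groups. Zfp322a itself read 8.75 and 8.84 in control and 7.53 and 7.13 in knock-down cells. Both knock-down values lay below both controls (change -1.46 ± 0.14, limma adjusted p = 0.00158). Markers of mES cells were bright in all 4 samples. Of 12 such markers 1 rose, 4 fell and 7 did not pass, and their summed linear level was 67695 to 69176 in control and 62582 to 62989 in knock-down cells. Of 10 endoderm markers 5 rose, with a summed level of 1904 to 2006 against 2080 to 2241, and 6 of the 10 were dimmer than the median probe set. Most of that sum is Lamb1, which did not pass, and without it, a choice made after its values were seen, the sum was 515 to 537 in control and 742 to 747 in knock-down cells. Of 13 fibroblast and feeder markers 2 rose and 3 fell (872 to 889 against 745 to 761), and 10 of them were dimmer than the median probe set. Of 9 trophoblast markers 1 rose and 2 fell (1527 to 1635 against 1198 on both knock-down arrays), and 6 of them were dimmer than the median probe set. Without the brightest gene Krt8, which fell, the trophoblast sum was 838 to 955 in control and 770 to 774 in knock-down cells. Of 9 neural and mesoderm markers 1 rose (873 to 885 against 991 to 1017, and 688 to 707 against 693 to 743 without the brightest gene Tubb3). The part of these shifts in the results below was not tested, and in bulk RNA fewer cells of a type and less RNA per cell cannot be told apart.

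Myc showed the largest difference among the 10 genes and was higher in Zfp322a RNAi cells. Myc was measured by 1 probe set (1424942_a_at), whose log2 values were 7.20 and 7.0 in control RNAi and 8.25 and 8.19 in Zfp322a RNAi cells. Both knock-down arrays thus lay more than 1 log2 unit above the lower control and well above the higher one. The mean went from 7.10 ± 0.14 to 8.22 ± 0.04 (SD, n = 2), a difference of 1.12 ± 0.10 (standard error from limma) or 2.17-fold. The suffix _a_at marks a probe set that matches several transcripts of the gene, so that transcript variants of Myc are not resolved.

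Mycn, the paralogue that is prominent in early embryos and mES cells, was higher on 2 of its 3 probe sets. The brightest one (1417155_at) read 10.51 on both control arrays and 11.12 and 11.13 after knock-down, a difference of 0.61 ± 0.07 or 1.53-fold. A second one (1425922_a_at) read 7.64 and 7.58 in control and 8.40 and 8.37 in knock-down cells, a difference of 0.78 ± 0.08 or 1.71-fold. On both the groups stood apart by far more than the arrays of a group differed. The third probe set (1425923_at) read 7.48 and 7.34 in control and 7.27 and 7.47 in knock-down cells, so that the groups overlapped (-0.04 ± 0.10). The annotation gives all 3 the same gene, and which transcripts each of them covers was not analysed here.

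Mycl, which encodes L-Myc, moved less. Its brightest probe set (1434777_at) gave 7.38 and 7.36 in control and 7.63 and 7.62 in knock-down cells, a small difference of 0.26 ± 0.07 (1.19-fold) in which the groups did not overlap. Its other 2 probe sets were dimmer than the median probe set (6.09) and overlapped between groups, with differences of 0.21 ± 0.12 and -0.09 ± 0.10. Max, the partner that all these factors share, was measured by 1 probe set (1423501_at) and read 8.62 and 8.54 in control and 8.81 and 8.77 in knock-down cells. The knock-down arrays lay above the controls by 0.21 ± 0.08 (1.16-fold). Myc and Max were read by different probe sets, whose levels cannot be compared with each other, so that no ratio of Myc to Max RNA is given.

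**Figure D1:**
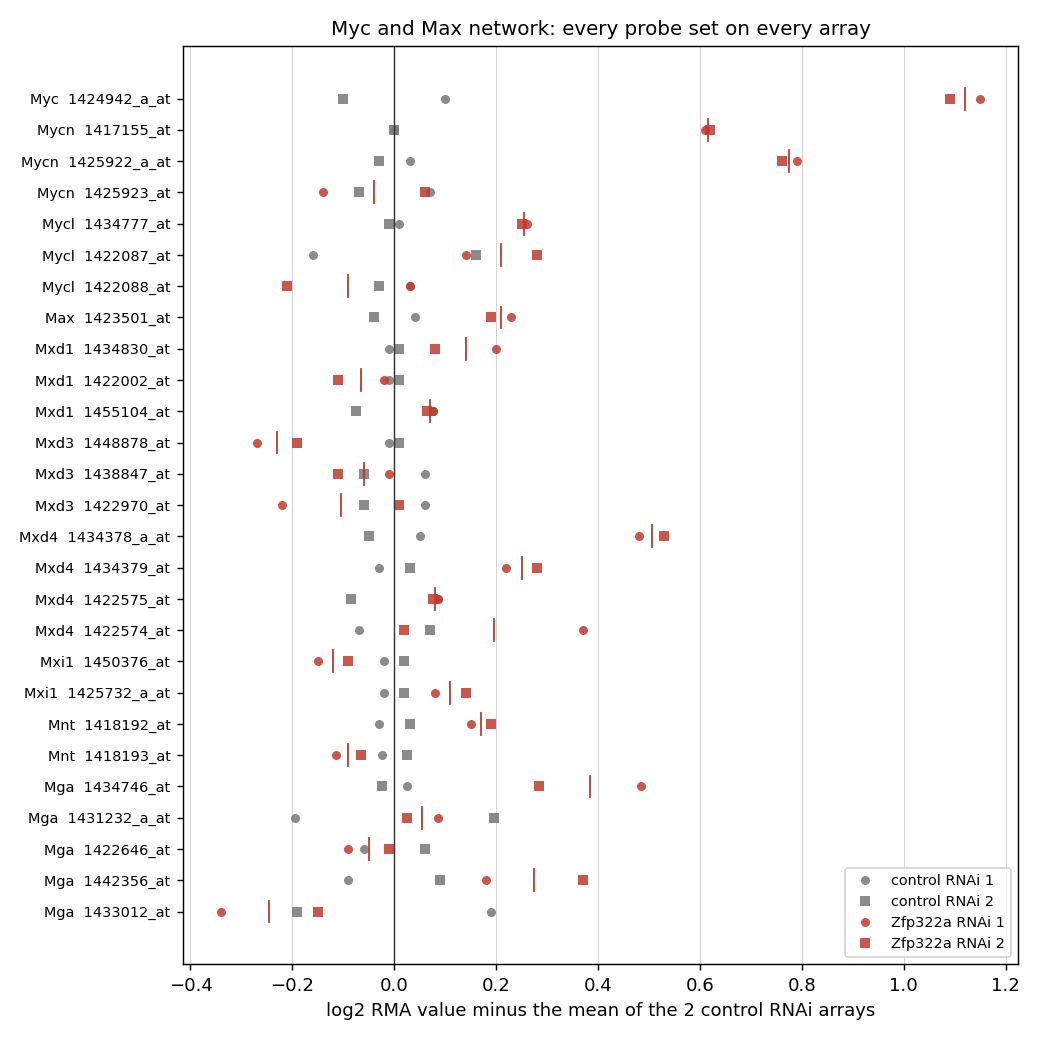
Distance of each array's log2 value from the control RNAi mean (x axis, log2 units) for each of the 27 probe sets of the network (y axis, ordered by gene and then by brightness). Control RNAi is drawn in grey and Zfp322a RNAi in red (circle, replicate 1, and square, replicate 2), with red lines for the knock-down means: Myc lies at 1.12, Mycn at 0.61 and 0.78 on 2 of its 3 probe sets, and most others lie within 0.3 of 0.

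The partners that repress gave small differences of mixed direction, except Mxd4. Mxd4, a Mxd protein known from differentiating and resting cells, was higher on all 4 of its probe sets. The brightest (1434378_a_at) read 6.09 and 5.99 in control and 6.52 and 6.57 in knock-down cells, a difference of 0.51 ± 0.08 or 1.42-fold. The next (1434379_at) read 6.03 and 6.09 against 6.28 and 6.34 (0.25 ± 0.08, 1.19-fold). On both the knock-down arrays lay above the controls, whereas on the other 2 probe sets, both dimmer than the median, the groups overlapped (0.08 ± 0.09 and 0.20 ± 0.13). Mxd4 therefore differed by less than 1.5-fold on each of its probe sets. Its 2 brighter probe sets lay near the median level themselves, at percentiles 53.2 and 51.5 of all probe sets.

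Mxd3, a Mxd protein known from cells that are dividing, was lower on all 3 of its probe sets. The brightest (1448878_at) read 7.36 and 7.38 in control and 7.10 and 7.18 in knock-down cells, a difference of -0.23 ± 0.08 with no overlap. The other 2 overlapped between groups (-0.06 ± 0.09 and -0.10 ± 0.10). For Mxd1 the brightest probe set read 6.69 and 6.71 against 6.90 and 6.78 (0.14 ± 0.08), and the other 2, which were dim, differed by -0.06 ± 0.08 and 0.07 ± 0.09. Mxi1, also called Mxd2, gave opposite signs on its 2 probe sets. The brighter one (1450376_at) read 9.43 and 9.47 in control and 9.30 and 9.36 in knock-down cells (-0.12 ± 0.08), and the other (1425732_a_at) read 6.88 and 6.92 against 6.98 and 7.04 (0.11 ± 0.08). Each pair of groups stood apart, but by little more than the standard error. Mnt, which antagonises Myc in dividing and resting cells alike, likewise differed in sign between its probe sets, with 9.41 and 9.47 against 9.59 and 9.63 on the brighter one (0.17 ± 0.08) and 6.10 and 6.15 against 6.01 and 6.06 on the other (-0.09 ± 0.08).

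Mga was higher on its brightest probe set (1434746_at), with 10.52 and 10.47 in control and 10.98 and 10.78 in knock-down cells (0.39 ± 0.09, 1.31-fold). The knock-down arrays lay above the controls but lay further from each other than those of Myc. A second probe set of high level (1431232_a_at) read 8.81 and 9.20 against 9.09 and 9.03, so that both knock-down arrays lay between the controls (0.06 ± 0.13). Another (1422646_at) overlapped as well (-0.05 ± 0.09), and a dim one with a difference of -0.24 ± 0.14 did too. The other dim one (1442356_at) read 5.26 and 5.44 in control and 5.53 and 5.72 in knock-down cells (0.28 ± 0.11). The groups of Mga thus stood apart on 2 of 5 probe sets, both higher.

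Across the network, 17 of the 27 probe sets were higher and 10 lower in Zfp322a RNAi cells, with a median difference of 0.11 (log2) against -0.03 over all probe sets. Past 1.5-fold, the threshold in the study's methods, 3 were higher (Myc and 2 of Mycn) and 0 lower, where 7.31% of all probe sets were past it (4.67% higher, 2.64% lower). In the limma fit over all 45037 probe sets, which reads the same values as the choice of the network and is no test of it, 5 member probe sets lay past an adjusted p of 0.05, which is 18.5% of 27, where 20.1% of all probe sets did (10.6% higher, 9.47% lower). These were the probe set of Myc, 2 of Mycn and 1 each of Mxd4 and Mga, each higher. The groups did not overlap on 16 of the 27 (59.3%), 12 higher and 4 lower, against 57.5% of all probe sets (25.1% higher, 32.4% lower). With each member taken by its brightest probe set the groups stood apart for 10 of 10, 8 higher and 2 lower, against 62.6% of all genes (26.8% higher, 35.8% lower). Because the members were chosen with this contrast known, nothing is read from these shares. The 9 probe sets dimmer than the median probe set had differences between -0.24 and 0.28. All 27 kept their sign in every alternative that used all 4 arrays, and 8 of them, each under 0.11 in size, changed sign or reached 0 when 1 array was left out. Without any 1 of the 4 arrays 3 member probe sets were past 1.5-fold, and Myc lay between 1.02 and 1.22, the 2 higher probe sets of Mycn between 0.61 and 0.81 (log2 differences).

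**Figure D2:**
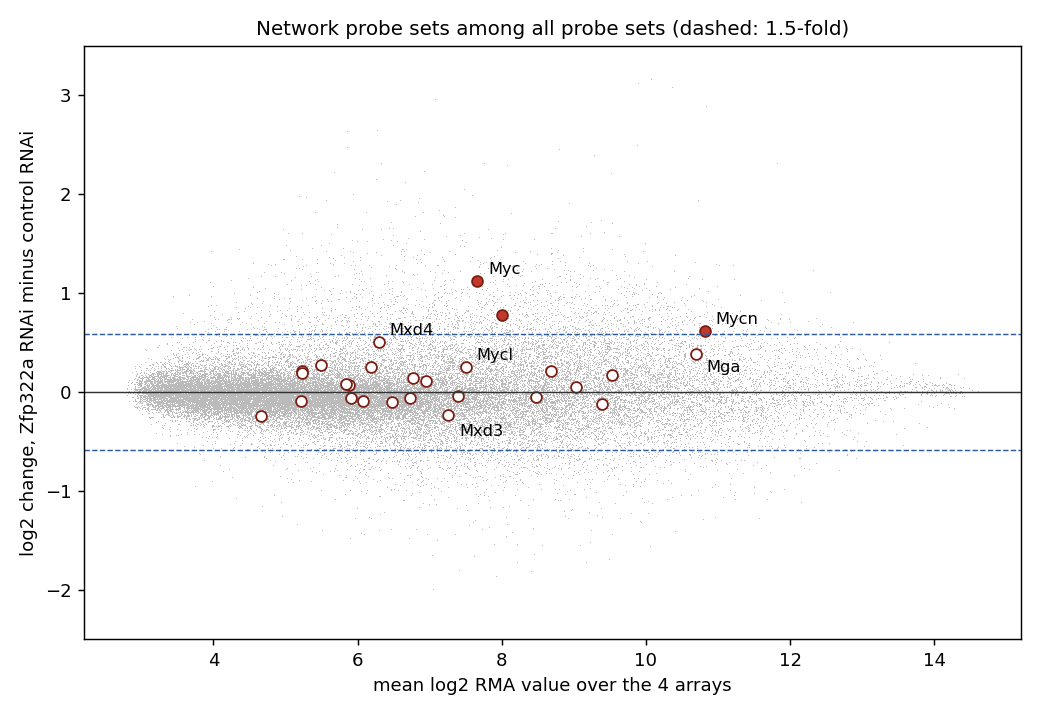
Mean log2 RMA value over the 4 arrays (x axis) and log2 change, Zfp322a RNAi minus control RNAi (y axis), for 45037 probe sets in grey and the 27 probe sets of the network as circles, filled for the 3 past 1.5-fold. Dashed lines mark 1.5-fold, which Myc (1.12) and 2 probe sets of Mycn (0.61 and 0.78) exceed.

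The profiles of Myc and Mycn over the 4 arrays were shared with many genes. By Euclidean distance between log2 values centred on each gene's mean over the 4 arrays, the genes most like Myc were Kdm4c (0.06), Zfp644 (0.06), Kdm6a (0.06), Pdha2 (0.07) and Sec24a (0.07), and 97 genes lay within 0.2. Those most like Mycn were Zfp955a, Zfp560, Yaf2, Antxr1 and Snhg12, at 0.02 each, and 880 genes lay within 0.2. With 4 arrays in 2 groups, genes with a difference of like size have like profiles.

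Genes around the network were counted from lists of its partners, inputs and targets, each gene by its brightest probe set. In the limma fit over all 18193 genes, 28.4% passed an adjusted p of 0.05 (14% higher, 14.4% lower), and the median change was -0.04. Each share below is to be read against these. When any 1 of the 4 arrays was left out limma called 0 genes after adjustment, while its unadjusted p was under 0.05 for 5147 to 5768 of them, so that every call below needs all 4 arrays.

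The Mlx branch, a parallel set of bHLHZip factors that senses sugar metabolites and meets the network at Mnt and Mxd proteins, gave 3 calls. Of 5 measured, 1 rose, 2 fell and 2 did not pass (60.0% called, median -0.13), with 0 past 1.5-fold. Mlxip (MondoA) fell from 8.32 and 8.23 to 7.93 and 7.91 (-0.35 ± 0.07, limma adjusted p = 0.0152), and Mlxipl (ChREBP) fell from 6.87 and 6.91 to 6.57 and 6.64 (-0.28 ± 0.07, limma adjusted p = 0.0294). Mlx, their partner, did not pass (-0.13 ± 0.09, limma adjusted p = 0.340). Of the textbook targets of this branch Arrdc4 rose (0.36 ± 0.07) and Txnip did not pass (0.03 ± 0.07). The call of Arrdc4 ended with the mean of its 2 probe sets (0.05).

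Coactivators that Myc recruits gave 5 calls. Ruvbl2, an ATPase of the TIP60 and INO80 complexes (-0.51 ± 0.08), the acetyltransferase gene Kat2a (-0.40 ± 0.07) and Wdr5, a scaffold of histone methyltransferases that binds Myc (-0.43 ± 0.09), fell, and Ep300 (0.28 ± 0.08) and Med1 (0.28 ± 0.07) rose. Trrap (-0.03 ± 0.08) and the Miz1 gene Zbtb17 (-0.10 ± 0.08), through which Myc represses, did not pass. Of 19 measured, 2 rose, 3 fell and 14 did not pass (26.3% called, median -0.08). For Med1, 2 other probe sets passed in the opposite direction, and Ep300 did not pass after quantile normalization was applied again (0.24, limma adjusted p = 0.0610). The 1 other probe set of Wdr5 did not pass.

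The Sin3 and histone deacetylase corepressors, which the Mxd proteins and Mnt recruit, went both ways. Arid4a (0.96 ± 0.13), Arid4b (0.58 ± 0.07), Hdac2 (0.41 ± 0.07) and Sap30 (0.36 ± 0.07) rose, and Sap130 (-0.39 ± 0.07), Ing1 (-0.30 ± 0.07), Ing2 (-0.25 ± 0.07) and Hdac1 (-0.24 ± 0.07) fell. Of the scaffold genes, Sin3a read 9.68 and 9.91 in control and 9.39 and 9.54 in knock-down cells (-0.33 ± 0.10, limma adjusted p = 0.0631) and Sin3b differed by 0.18 ± 0.08 (limma adjusted p = 0.133). Both other probe sets of Sin3a passed and were lower. Of 16 measured, 4 rose, 4 fell and 8 did not pass (8 of 16 called, median -0.11). For Arid4b 3 of 5 other probe sets passed in the opposite direction, so that its change is uncertain. Neither of 2 other probe sets of Arid4a passed, nor did any of 3 others of Ing1.

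Partners of Mga in PRC1.6 included the following changes. Rnf2, the catalytic ubiquitin ligase, rose 1.74-fold, from 10.64 and 10.71 to 11.49 and 11.46 (0.80 ± 0.07, limma adjusted p = 0.00142). Yaf2, a subunit that docks on Rnf2 (0.60 ± 0.07), Tfdp1, a partner of E2F factors (0.43 ± 0.07), and Hdac2 (0.41 ± 0.07) rose as well, while Tfdp2 (-0.41 ± 0.08), Wdr5 (-0.43 ± 0.09) and Hdac1 (-0.24 ± 0.07) fell. The subunits that define this complex did not pass, with Pcgf6 at 0.18 ± 0.07 (limma adjusted p = 0.123), E2f6 at 0.22 ± 0.07 (0.0681) and L3mbtl2 at -0.14 ± 0.08 (0.258). Of 2 other probe sets of Pcgf6, however, 1 passed and was lower, so that its direction is uncertain. Of 12 measured, 4 rose, 3 fell and 5 did not pass (58.3% called, median 0.14). Hdac1, Hdac2 and Wdr5 also stand in the lists above.

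Genes that act on Myc protein and on Myc transcription were measured as RNA. Cip2a, which shields Myc from a phosphatase, rose 1.86-fold, from 10.20 and 9.97 to 11.05 and 10.91 (0.90 ± 0.10, limma adjusted p = 0.00264). The kinase gene Pim1 fell from 10.18 and 10.29 to 9.38 and 9.42 (-0.83 ± 0.07, limma adjusted p = 0.00148), and the deubiquitinase gene Usp28 (-0.43 ± 0.07) and Gsk3b (-0.41 ± 0.09), whose kinase marks Myc for destruction, fell too. Of 5 other probe sets of Gsk3b, 2 passed in the same direction and 1 in the opposite one. Fbxo32 (0.39 ± 0.08) and Cdk1 (0.33 ± 0.08) rose. The probe set read for Fbxo32 was dimmer than the median, and neither of its 2 other probe sets passed. The ubiquitin ligase genes Fbxw7 (-0.01 ± 0.08), Skp2 (0.09 ± 0.10) and Huwe1 (-0.09 ± 0.07) did not pass. Of 5 other probe sets of Skp2, 1 passed and was lower. Among 24 turnover genes 3 rose, 4 fell and 17 did not pass (29.2% called, median -0.07). A further probe set of Fbxw7 passed, and with probe sets named _x_at, _s_at or _a_at left out Fbxw7 was higher (0.52, limma adjusted p = 0.00403).

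Among inputs to Myc transcription, Rbpj, the DNA-binding partner of Notch, fell 2.11-fold, from 11.60 and 11.61 to 10.54 and 10.52 (-1.08 ± 0.07, limma adjusted p = 8.76e-04). Smad3 (-0.51 ± 0.07) and E2f1 (-0.46 ± 0.07) fell as well, while Zfx, a zinc finger factor of mES cell self-renewal (0.65 ± 0.07), the noncoding gene Pvt1 that neighbours Myc (0.47 ± 0.07) and Notch1 (0.33 ± 0.08) rose. Stat3 (-0.01 ± 0.07) and Tcf7l1 (-0.07 ± 0.07) did not pass, though Stat3 was higher once probe sets named _x_at, _s_at or _a_at were left out (0.42, limma adjusted p = 0.0114). Of 20 measured, 3 rose, 5 fell and 12 did not pass (40.0% called, median -0.07). Of 4 other probe sets of Pvt1, 2 passed in the same direction and 1 in the opposite one. Neither of 2 other probe sets of Smad3 passed, nor did the 1 other of Notch1.

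**Figure D3:**
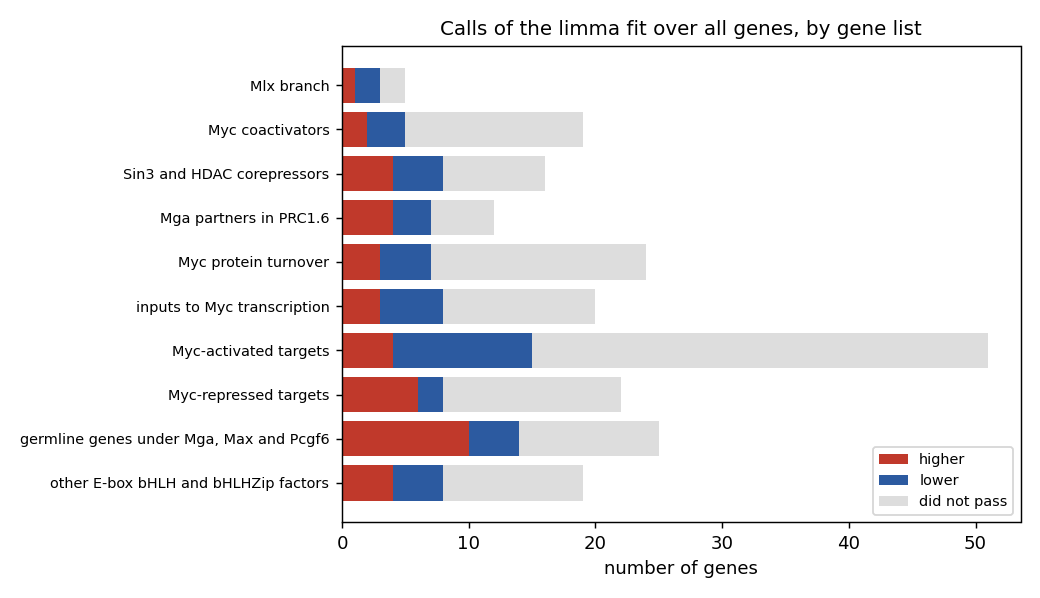
Number of genes (x axis) of 10 lists around the network (y axis) that were higher (red), lower (blue) or did not pass (grey) in the limma fit over all genes. Myc-activated targets had 4 higher and 11 lower of 51, and germline genes 10 higher and 4 lower of 25.

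Of 51 measured genes that are known as activated by Myc, 4 rose, 11 fell and 36 did not pass (29.4% called, median -0.07). The 3 largest falls were those of glycolytic enzymes. Hexokinase 2 (Hk2) fell 1.96-fold, from 11.35 and 11.44 to 10.36 and 10.49 (-0.97 ± 0.08, limma adjusted p = 0.00128). Pyruvate kinase (Pkm) fell 1.68-fold (-0.74 ± 0.08, limma adjusted p = 0.00197) and lactate dehydrogenase A (Ldha) 1.54-fold (-0.62 ± 0.08, limma adjusted p = 0.00320). Genes chosen after their values were seen, Cad of pyrimidine synthesis (-0.56 ± 0.07), Shmt2 of one-carbon metabolism (-0.46 ± 0.07) and Nolc1 (-0.40 ± 0.07) and Bop1 (-0.47 ± 0.09) of ribosome production, fell as well. The rises were those of the cyclin gene Ccnd2, from 6.65 and 6.40 to 7.57 and 7.56 (2.06-fold, 1.04 ± 0.10, limma adjusted p = 0.00162), the cap-binding factor gene Eif4e (0.50 ± 0.07), Lin28b, an inhibitor of let-7 maturation (0.69 ± 0.11), and Prdx3 (0.40 ± 0.07), a mitochondrial peroxidase. The nucleolin gene Ncl (-0.17 ± 0.07) and the ornithine decarboxylase gene Odc1 (0.02 ± 0.07), both classical targets, did not pass. The single probe set of Lin28b was dimmer than the median probe set (6.09). It read 4.12 and 4.08 in control and 4.95 and 4.63 in knock-down cells. The call of Eif4e ended with the mean of its probe sets (0.06). The 1 other probe set of Bop1 did not pass. With dim probe sets left out 9 of 50 rose and 19 fell, where 2788 of all 11433 genes rose and 3009 fell. With a variance trend 12 of 51 rose and 20 fell, where 3081 of all 18193 genes rose and 3187 fell.

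The E-box CACGTG stood in 14 of 53 promoter windows of the Myc-activated genes (26.4%), against 7.15% of all windows. These genes were listed as known targets of Myc, so that nothing is read from this share. Of the 11 genes that fell 10 had a window, and only Ldha held an E-box (7.14% of windows). Of the 4 that rose 3 had a window, and Eif4e and Lin28b held an E-box (50% of windows). Of the 36 that did not pass 30 had a window, and 10 held an E-box (31.4% of windows). The limits given above for Eif4e and Lin28b apply here too. The windows of Ldha, Eif4e and Lin28b are shown because they carry the same E-box with opposite changes. They lie at chr7:46845647-46845676 and chr7:46845744-46845773 for Ldha (plus strand), chr3:138527192-138527221 for Eif4e (plus strand) and chr10:45470233-45470262 for Lin28b (minus strand), and a further E-box of Eif4e is not shown.
Ldha, distal: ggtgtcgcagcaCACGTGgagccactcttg
Ldha, proximal: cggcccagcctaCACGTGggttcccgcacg
Eif4e: ggacacgtccgtCACGTGggcaggagccgg
Lin28b: aattgacagagtCACGTGtgctcaggggcc

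Of 22 genes listed as repressed by Myc, 6 rose, 2 fell and 14 did not pass (36.4% called, median 0.02). Gata6, a regulator of primitive endoderm, rose 2.68-fold, from 6.63 and 6.49 to 7.96 and 8.0 (1.42 ± 0.08, limma adjusted p = 7.50e-04). The stress gene Gadd45a (1.22 ± 0.11) and Tgfbi (0.97 ± 0.07) rose, and Ndrg2 (-0.97 ± 0.10) and Pdgfrb (-0.87 ± 0.08) fell. Cdkn1a, which encodes the cell cycle inhibitor p21, did not pass (-0.18 ± 0.09, limma adjusted p = 0.209). Gata6 and Pdgfrb are also among the endoderm and fibroblast markers, respectively. Pdgfrb did not pass when probe sets named _x_at, _s_at or _a_at were left out (-0.50, limma adjusted p = 0.0748).

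**Figure D4:**
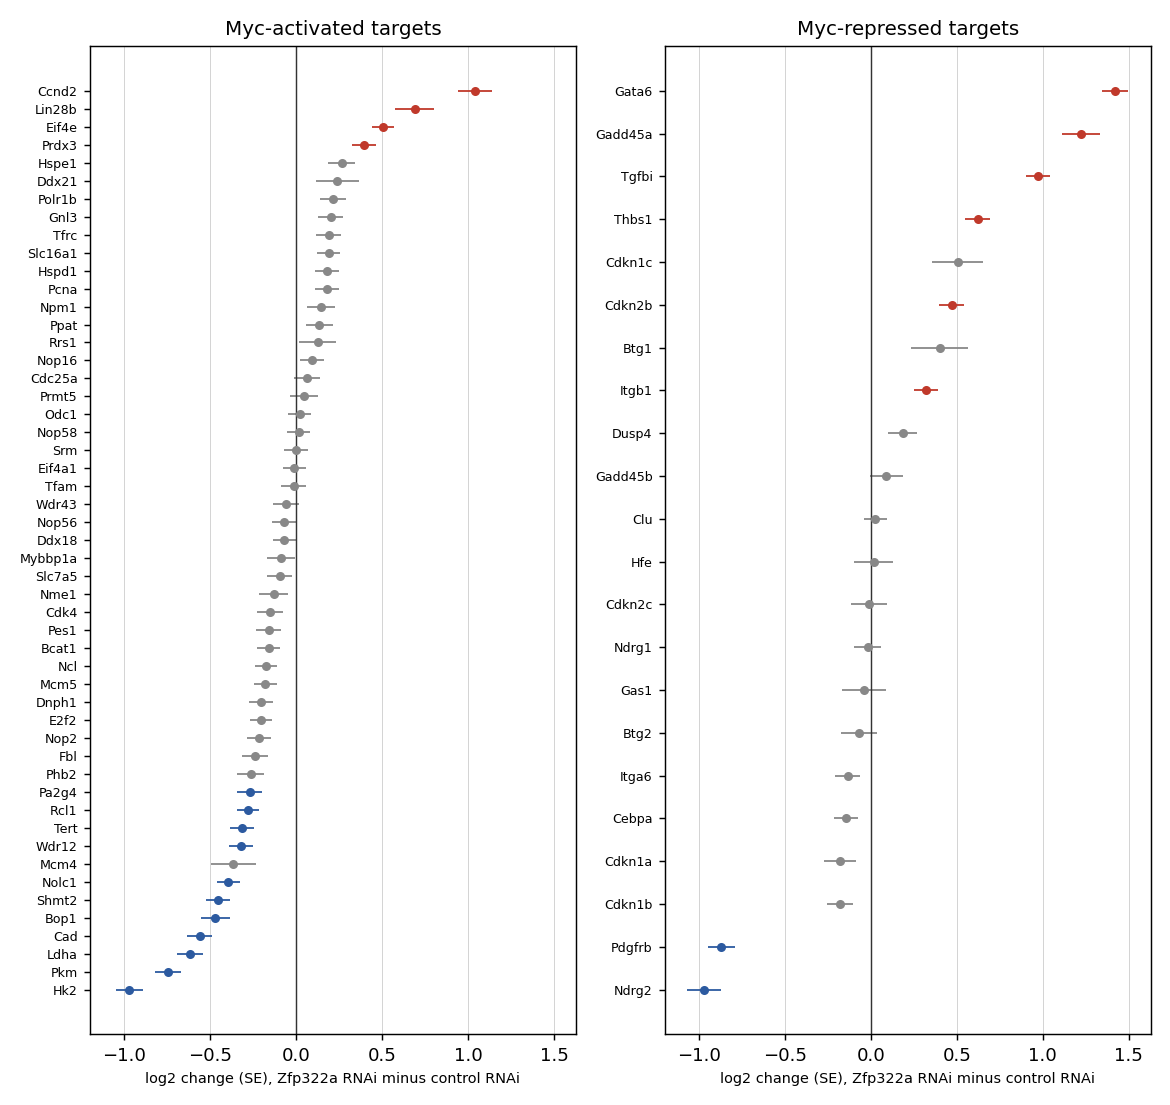
Log2 change, Zfp322a RNAi minus control RNAi (x axis), with its standard error from limma (bars) for 51 Myc-activated genes (left) and 22 Myc-repressed genes (right), red where higher and blue where lower at an adjusted p of 0.05. Myc-activated genes run from Hk2 (-0.97) to Ccnd2 (1.04), and most lie near 0.

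Among germline genes that the complex of Mga and Max is known to repress, 10 rose and 4 fell. Their control means ran from 11.49 for Dazl and 10.02 for Sycp3, the brightest, down to 4.24 for Tuba3b. Of the 25 measured, 3 were dimmer than the median probe set over the 4 arrays. Which of them were expressed in control cells was not tested. Sycp3, a protein of the meiotic chromosome axis, rose 2.24-fold, from 10.11 and 9.93 to 11.25 and 11.12 (1.16 ± 0.09, limma adjusted p = 0.00120). Its partner in the synaptonemal complex, Sycp1, rose from 6.59 and 6.57 to 7.52 and 7.42 (0.89 ± 0.07, limma adjusted p = 0.00125). The RNA-binding germ cell gene Dazl rose from 11.54 and 11.44 to 12.20 and 12.24 (0.73 ± 0.07, limma adjusted p = 0.00187), and the helicase gene Ddx4, also called Vasa, from 9.18 and 9.11 to 9.82 and 9.61 (0.57 ± 0.09, limma adjusted p = 0.00748). The piRNA pathway genes Mov10l1 (-1.0 ± 0.09) and Tdrd12 (-0.93 ± 0.09) and the meiotic cohesin gene Stag3 (-0.56 ± 0.07) fell. Of 25 measured, 10 rose, 4 fell and 11 did not pass (56.0% called, median 0.10), and past 1.5-fold without a test 6 were higher and 2 lower, where 8.25% of all genes were past it (5.05% higher, 3.20% lower).

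The E-box CACGTG stood in 15 of 29 windows (51.7%) of 23 germline genes, against 7.15% of all windows. Some of these windows overlap and share an E-box, and counted by gene 12 of the 23 held one. The genes were listed because Mga and Max are known to act on them, so that nothing is read from this share. Of the 10 genes that rose 7 held the E-box, of the 4 that fell 2 did, and of the 9 that did not pass and had a window 3 did. The windows of Sycp3, Sycp1 and Ddx4, which rose, and of Stag3, which fell, are shown because they place the sequence read by the network at genes that moved. They lie at chr10:88459511-88459540 and chr10:88459532-88459561 for Sycp3 (plus strand), chr3:102936177-102936206 for Sycp1 (minus strand), chr13:112652322-112652351 for Ddx4 (minus strand) and chr5:138280327-138280356 for Stag3 (plus strand).
Sycp3, distal: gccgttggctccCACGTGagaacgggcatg
Sycp3, proximal: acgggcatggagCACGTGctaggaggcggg
Sycp1: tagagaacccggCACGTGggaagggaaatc
Ddx4: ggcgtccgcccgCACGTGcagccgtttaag
Stag3: cgcgctggagccCACGTGacaggactgcac
The window of Dazl held no CACGTG. Binding of Mga or Max was not measured on the arrays.

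**Figure D5:**
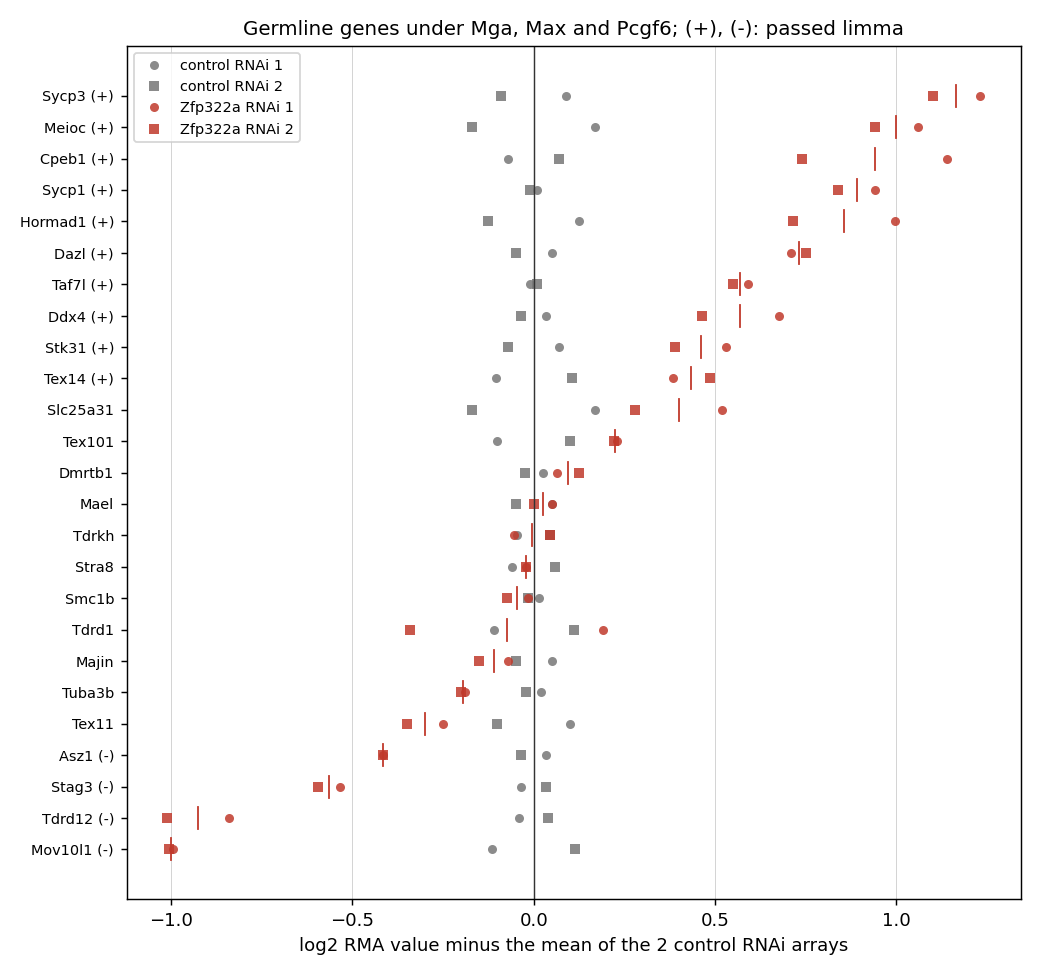
Log2 values per array relative to the control RNAi mean (x axis, log2 units) for 25 germline genes (y axis, ordered by change). Control RNAi is drawn in grey and Zfp322a RNAi in red, with red lines for knock-down means: 10 genes marked (+) rose, led by Sycp3 at 1.16, and 4 marked (-) fell, with Mov10l1 lowest at -1.0.

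Other factors that bind E-boxes went both ways. Clock, a bHLH factor of the circadian oscillator, rose 2.08-fold, from 8.02 and 7.96 to 9.11 and 8.99 (1.06 ± 0.08, limma adjusted p = 0.00107). Tcf12 (0.63 ± 0.08) and Hes1 (0.39 ± 0.07) rose, and Srebf2, the regulator of cholesterol synthesis (-0.65 ± 0.08), Tcf4 (-0.55 ± 0.07) and Mitf (-0.39 ± 0.07) fell. Of 19 measured, 4 rose, 4 fell and 11 did not pass (42.1% called, median -0.03). The 1 other probe set of Mitf did not pass.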

How the data were processed

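RNA of 4 samples of E14 cells was measured on 1-colour Affymetrix Mouse Genome MG430 2.0 arrays. The authors processed the arrays with RMA (background subtraction, quantile normalization, probe set summary), and the deposited log2 values were used as deposited. The table does not state its scale, which was read from the range of 2.62 to 14.6. RMA would hide a shift of all genes in one direction. Groups and replicate numbers came from the sample titles.

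Of 45037 probe sets, 34945 had 1 gene symbol, 932 several and 9160 none in the platform annotation. Symbols were updated through the Entrez ID (34741 matched, RefSeq GRCm38.p6). limma 3.58.1 in R 4.3.3 was fitted to all probe sets, and to 18193 genes by their brightest probe set (two-sided test of the group term, residual degrees of freedom 2), and p-values were adjusted by Benjamini-Hochberg over the whole table (threshold 0.05). The median standard error was 0.08 for genes. Precision is limited by the number of arrays, 2 per group, for which the smallest two-sided exact permutation p of a single gene is 0.333. The procedure was tested on simulated data. The members and lists were chosen with earlier results of these data known. Genes named are Zfp322a, all members, in each list up to 3 rises and 3 falls of lowest p among those past the adjusted p, and a fixed set of central genes of the lists. Other genes named are said to be so or are given to name a whole group. Alternatives were array centring, repeated quantile normalization, a variance trend, dim probe sets or those named _x_at, _s_at or _a_at left out, averaging a gene's probe sets, a replicate block, the 1.5-fold rule and leaving out each array.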

Additional observations from a re-analysis of the deposited data

How the results depend on the processing

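The members' differences kept their direction in every alternative that used all 4 arrays, and 143 of 148 such values moved by less than the spread between replicates. With probe sets named _x_at, _s_at or _a_at left out, 1 member probe set (of Mycn) was past 1.5-fold in place of 3, since the single probe set of Myc and 1 of Mycn drop out, and by limma's adjusted p in place of the 1.5-fold rule 5 were called. Of 102 counts recomputed with all arrays, 76 stayed within 1.5 times. With a variance trend 8 coactivators, 13 turnover genes and 32 Myc-activated genes were called, in place of 5, 7 and 15. Of all 18193 genes 6268 were called in that setting, in place of 5163. With dim probe sets left out 28 of 50 Myc-activated genes were called, where 5797 of all 11433 genes were. With the mean of each gene's probe sets 5 inputs to Myc transcription were called in place of 8, and 4852 of all genes in place of 5163. By the 1.5-fold rule without a test, 3294 probe sets (9040 by limma) and 1501 genes (5163 by limma) were past it, with 0 genes of the Mlx branch, 0 coactivators, 2 Sin3 and deacetylase genes, 2 partners of Mga, 2 turnover genes, 2 inputs, 5 Myc-activated genes, 8 germline genes and 3 other E-box factors. Fbxw7 changed from -0.01 to 0.52 without the probe sets named _x_at, _s_at or _a_at and to 0.26 with the mean of its probe sets, and Stat3 from -0.01 to 0.42 without those probe sets, since other probe sets of these genes were then read.

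Leaving out each array in turn left 0 to 0 calls by limma's adjusted p for all probe sets, all genes and each of the 10 lists, with 1 residual degree of freedom, 10572 to 11509 probe sets and 5147 to 5768 genes at an unadjusted p under 0.05, and 3 to 3 member probe sets past 1.5-fold. In these fits the group with 1 array was assumed to vary like the other. Replicate numbers were not shown to pair the samples (correlation of the deviations of same-numbered arrays 0.06 over 45037 probe sets). With the replicate number as a block limma called 0 probe sets (13586 at an unadjusted p under 0.05) and 2656 genes, with 0 genes of the Mlx branch, 2 coactivators, 5 Sin3 and deacetylase genes, 4 partners of Mga, 3 turnover genes and 5 other E-box factors, and the other 4 lists stayed within 1.5 times. Of 494 values of named list genes with all arrays, 449 kept direction and call, 30 lost the call, 12 gained it and 3 reversed, those of Fbxw7 and Stat3 given above, neither of which passed as reported. Apart from constructions named here, the cause was not tested. Dim probe sets limit what can be seen of Mycl, Mxd1, Mxd4 and part of Mga.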
